A study of Mus musculus with 7 samples.

Results

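A set of 9 C-type lectin receptor genes of myeloid cells was followed through 7 libraries of mouse granulocytes. All 9 symbols, which were Clec4d, Clec4e, Clec4n, Clec4a2, Clec5a, Clec7a, Clec12a, Clec2d and Cd69, were matched to an Ensembl gene among the 51789 genes of the deposited count table, and all 9 passed the filter on low counts. The libraries came from Alox15 knockout (KO, n = 3) and Alox15 wild-type (WT, n = 4) granulocytes, and every library carried the label untreated. Alox15 encodes arachidonate 15-lipoxygenase, an enzyme that oxygenates polyunsaturated fatty acids. The labels give no strain, age, organ, sorting step or deleted exon. They also do not say whether replicates were separate animals, so each p-value reflects library-to-library spread, some of which may be technical. PolyA RNA was read with a QuantSeq kit, which makes 1 tag near the 3′ end of a transcript, so a count is not scaled by transcript length.

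C-type lectin receptors are membrane proteins with a carbohydrate-recognition fold, and on myeloid cells they bind sugars and lipids of fungi and mycobacteria as well as products of dead cells. Activating members signal through an adaptor with a tyrosine activation motif (FcRγ, encoded by Fcer1g, or DAP12, encoded by Tyrobp) or through a motif of their own, recruit the kinase Syk, and engage the CARD9-BCL10-MALT1 complex to turn on NF-κB. Inhibitory members carry a motif that recruits the phosphatases SHP-1 and SHP-2 (Ptpn6 and Ptpn11). Neutrophils carry several receptors of both kinds.

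The libraries differed in depth and in cell content. Totals were 3228292 to 5348256 counts in KO and 3606843 to 5657192 counts in WT. Alox15 had 1 count in KO 1 and 0 in the other 6 libraries, so it could not check the labels. A mature neutrophil score, the mean log2 CPM (counts scaled to a common library size) of 21 marker genes without any of the 9 receptors, was 8.67, 8.26 and 5.24 in KO 1, 2 and 3 and 9.10, 5.75, 7.67 and 7.48 in WT 1, 2, 3 and 4. KO 3 and WT 2 thus stood apart as low, and in them the T cell receptor gene Cd3d (441 and 202 CPM) exceeded the neutrophil chemokine receptor gene Cxcr2 (37.8 and 71.7 CPM). KO 2 and KO 3 carried another description stem than the other 5 libraries and were the only libraries with Xist above 100 CPM, so stem, sex-linked transcripts and part of the genotype contrast cannot be told apart. Because these are bulk libraries, fewer cells of a type and less RNA per cell cannot be told apart.

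All 9 genes lie on chromosome 6 (GRCm38). Clec4a2 (ENSMUSG00000030148, plus strand, 123106428 to 123143999), Clec4n (ENSMUSG00000023349, plus, 123229843 to 123247021), Clec4d (ENSMUSG00000030144, plus, 123262111 to 123275265) and Clec4e (ENSMUSG00000030142, minus, 123281789 to 123289870) are neighbours, as are Clec2d (ENSMUSG00000030157, plus, 129180615 to 129186534), Cd69 (ENSMUSG00000030156, minus, 129267325 to 129275436), Clec12a (ENSMUSG00000053063, plus, 129342691 to 129365303) and Clec7a (ENSMUSG00000079293, minus, 129461591 to 129472779). Clec5a (ENSMUSG00000029915, minus, 40574894 to 40585821) lies apart from both groups. The annotation classes 8 of them as protein-coding and Clec7a as a polymorphic pseudogene.

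Promoters are shown for the pair that moved most closely together, Clec4d and Clec4e, for Clec4a2, whose ratio to that pair differed in range between genotypes, and for Clec2d, which did not follow them. Each runs from 250 bases before to 50 bases after the transcription start in RefSeq (GRCm38.p6), read 5′ to 3′ along the gene. Capitals mark matches, on either strand, to GAGGAA, the core of PU.1 sites, to TTNNGNAA, a C/EBP site, or to TGANTCA, an AP-1 site. The windows are chr6:123261857-123262156 (plus) for Clec4d, chr6:123289822-123290121 (minus) for Clec4e, chr6:123122440-123122739 (plus) for Clec4a2, inside the span given above for that gene, and chr6:129180365-129180664 (plus) for Clec2d.
Clec4d: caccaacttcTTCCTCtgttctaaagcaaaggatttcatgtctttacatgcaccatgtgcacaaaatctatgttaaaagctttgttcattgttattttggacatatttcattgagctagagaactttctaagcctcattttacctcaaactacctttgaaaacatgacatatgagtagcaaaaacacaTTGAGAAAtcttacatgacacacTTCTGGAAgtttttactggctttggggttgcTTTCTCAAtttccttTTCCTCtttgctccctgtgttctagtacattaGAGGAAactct
Clec4e: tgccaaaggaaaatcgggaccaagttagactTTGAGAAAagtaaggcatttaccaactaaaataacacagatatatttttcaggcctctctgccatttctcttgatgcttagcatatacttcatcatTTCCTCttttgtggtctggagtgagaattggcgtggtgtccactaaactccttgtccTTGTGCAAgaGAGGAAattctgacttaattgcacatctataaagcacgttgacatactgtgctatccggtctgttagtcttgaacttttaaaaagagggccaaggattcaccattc
Clec4a2: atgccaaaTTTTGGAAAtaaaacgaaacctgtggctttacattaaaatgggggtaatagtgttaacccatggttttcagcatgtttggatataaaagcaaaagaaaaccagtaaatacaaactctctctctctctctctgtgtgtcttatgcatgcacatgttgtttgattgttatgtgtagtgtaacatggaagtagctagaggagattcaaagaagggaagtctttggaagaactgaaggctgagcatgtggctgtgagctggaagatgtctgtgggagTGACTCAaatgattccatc
Clec2d: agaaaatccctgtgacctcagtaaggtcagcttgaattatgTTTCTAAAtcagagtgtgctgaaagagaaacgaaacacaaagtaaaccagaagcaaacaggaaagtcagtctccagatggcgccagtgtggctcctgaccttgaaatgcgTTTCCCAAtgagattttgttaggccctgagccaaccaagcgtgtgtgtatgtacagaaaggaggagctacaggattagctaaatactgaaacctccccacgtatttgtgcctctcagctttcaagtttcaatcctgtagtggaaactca

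Clec4d had 3 PU.1 and 3 C/EBP matches, and Clec4e had 2 of each. Clec4a2 had 0 PU.1 matches, 2 C/EBP matches that overlap each other, and 1 AP-1 match, whereas Clec2d had 2 C/EBP matches alone. Among the other members in the promoter table, Clec5a had 2 PU.1 matches and 1 C/EBP match, Clec7a had 1 PU.1 match and Clec12a had 2, 3 and 1 of the PU.1, C/EBP and AP-1 matches. Of 32851 promoters of 300 bases, 28.3% held GAGGAA, 40.7% TTNNGNAA and 7.8% TGANTCA, so single matches are common. A match is a description of letters and not a site. Clec4n and Cd69 had no promoter printed here.

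The comparison asked whether granulocytes lacking Alox15 differed in these receptors. None of the 9 transcripts differed beyond the spread between libraries (edgeR quasi-likelihood test, Benjamini-Hochberg adjusted p = 0.99995 for each), where 0% of 12506 tested genes passed higher and 0% lower. At an unadjusted p under 0.05, edgeR counted 0 of 9 members against 154 genes or 1.23% of all tested genes. At an adjusted p under 0.05, DESeq2 called 1 gene, which was no member. For 0 of 9 members were the CPM ranges of the genotypes separate, against 3.13% of all tested genes. Fold changes (log2, KO over WT) were above 0 for 5 members and below 0 for 4, with a median of 0.03, beside 0.01 for all tested genes. Standard errors were 0.67 to 1.01 on the log2 scale for the members other than Cd69, so a log2 fold change of 1 was within 2 standard errors of 0.

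Clec4d and Clec4e, which encode the FcRγ-coupled receptors MCL and Mincle for mycobacterial cord factor, varied 11.95-fold and 11.3-fold between the highest and the lowest library, with overlap of the genotypes. Clec4e had 909, 734 and 118 CPM in KO 1, 2 and 3, against 1340, 133, 483 and 546 CPM in WT 1, 2, 3 and 4. The lowest libraries were KO 3 and WT 2, and the KO range lay almost wholly inside the WT range. The means were 587 ± 415 CPM in KO (SD, n = 3) and 626 ± 510 CPM in WT (SD, n = 4), and the log2 fold change was -0.09 ± 0.81 (SE). Clec4d had 501, 298 and 60.6 CPM in the KO libraries, against 723, 60.1, 215 and 254 CPM in the WT libraries, with a log2 fold change of -0.13 ± 0.84. The order of libraries from high to low was the same as for Clec4e except that KO 3 and WT 2 changed places.

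Clec4n encodes Dectin-2, an FcRγ-coupled receptor for fungal mannans. Clec4n had 491, 294 and 55.5 CPM in KO and 648, 61.4, 274 and 299 CPM in WT, with a log2 fold change of -0.19 ± 0.81. WT 1 was again highest and KO 3 and WT 2 lowest, and the genotypes overlapped.

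Clec4d, Clec4e and Clec4n kept nearly fixed proportions to one another while their levels moved together. Per 1000 Clec4e counts there were 551, 406 and 512 Clec4d counts in the KO libraries, against 540, 451, 445 and 464 in the WT libraries. The corresponding numbers for Clec4n were 540, 400 and 469 in KO and 484, 460, 567 and 547 in WT. Over the 7 libraries the log2 ratio of Clec4d to Clec4e had an SD of 0.16, that of Clec4e to Clec4n one of 0.18 and that of Clec4d to Clec4n one of 0.19, while log2 CPM of each had an SD of 1.34 to 1.38. These were the steadiest of the 36 pairs among the 9 genes, and the next was Clec5a with Clec7a at 0.40.

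**Figure D1:**
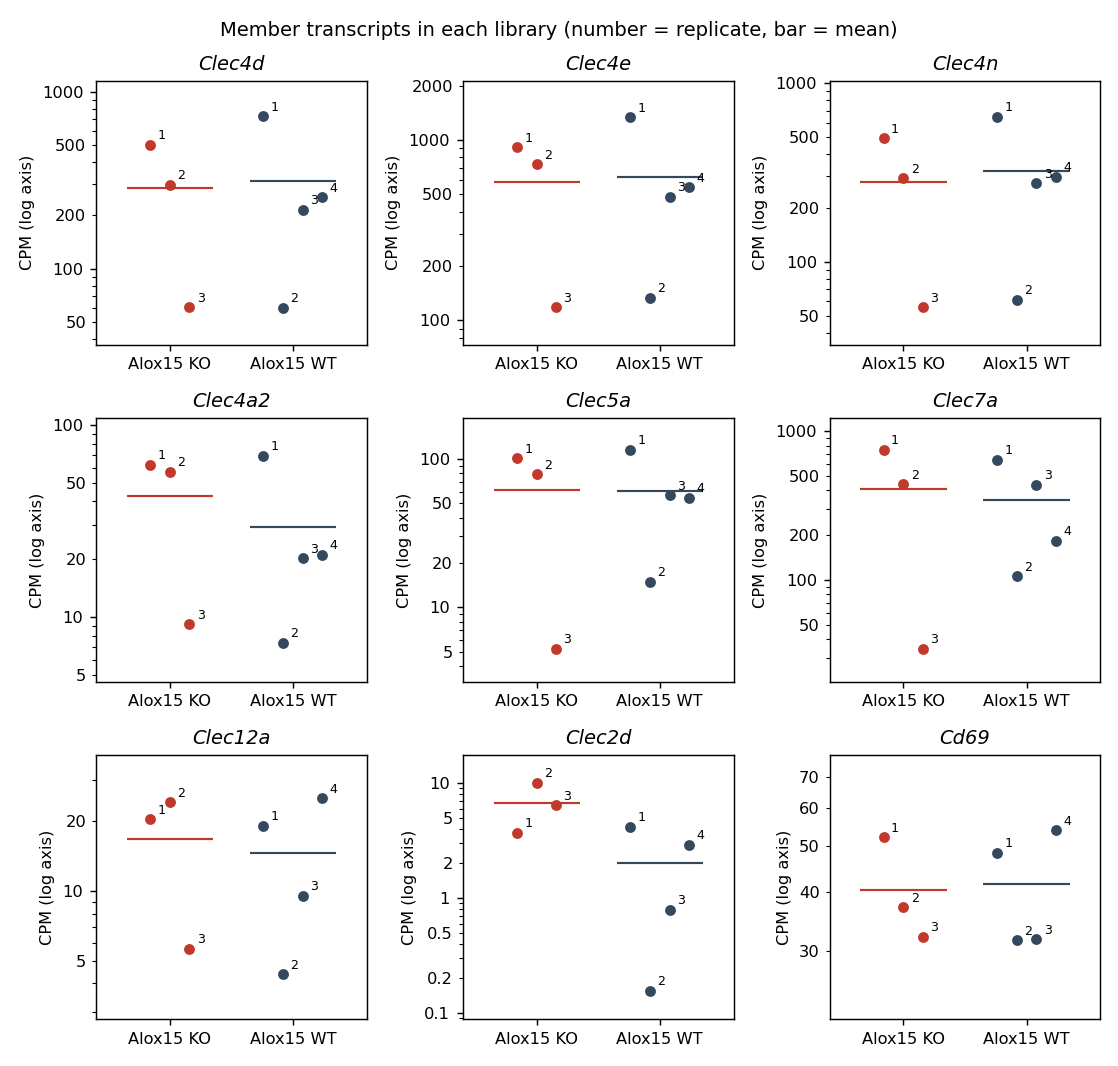
CPM of each receptor transcript (log axis) in the 3 KO libraries and the 4 WT libraries, where points are libraries numbered by replicate and bars are group means. For 7 of the receptors the lowest points are KO 3 and WT 2; Cd69 stays between 31.6 and 54.0 CPM, and Clec2d lies at 10.1 CPM or less.

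Clec5a (MDL-1) is a DAP12-coupled receptor that binds dengue virus, and Clec7a (Dectin-1) is the β-glucan receptor with a tyrosine motif of its own. Both had their lowest ratio to Clec4e in KO 3, at 44.4 counts of Clec5a and 291 counts of Clec7a per 1000 Clec4e counts. Clec5a had 101, 78.4 and 5.26 CPM in KO and 115, 14.9, 57.0 and 54.5 CPM in WT, with a log2 fold change of 0.03 ± 0.88. Clec7a had 748, 440 and 34.5 CPM in KO and 642, 106, 438 and 184 CPM in WT, with a log2 fold change of 0.25 ± 0.89. The KO libraries held both the highest and the lowest value of Clec7a, and WT 4 was low for Clec7a but not for Clec5a. The highest library exceeded the lowest 20.2-fold for Clec5a and 21.5-fold for Clec7a on the log2 CPM scale with a prior count of 2.

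The inhibitory receptors were Clec4a2 (DCIR) and Clec12a (MICL, a receptor for uric acid crystals). Clec4a2 had 62.2, 57.3 and 9.15 CPM in KO and 69.3, 7.36, 20.3 and 21.2 CPM in WT. Its log2 fold change was 0.54 ± 0.80, with means of 42.9 ± 29.3 CPM in KO (SD, n = 3) and 29.5 ± 27.3 CPM in WT (SD, n = 4), and the ranges overlapped. Clec12a had 20.4, 24.2 and 5.65 CPM in KO and 19.1, 4.38, 9.53 and 25.2 CPM in WT, with a log2 fold change of 0.21 ± 0.67. Here WT 4 and not WT 1 was the highest library.

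Clec2d and Cd69 belong to the subgroup of lectin-like proteins next to the natural killer receptor genes. Clec2d encodes Clr-b, the ligand of the inhibitory receptor NKR-P1B, and Cd69 an early activation marker of lymphocytes and granulocytes that holds back the egress receptor S1P1. Clec2d had 19, 33 and 33 counts in KO and 14, 1, 4 and 11 counts in WT, or 3.69, 10.1 and 6.43 CPM in KO and 4.18, 0.157, 0.795 and 2.91 CPM in WT. KO 1 lay inside the WT range and KO 2 and KO 3, the libraries with the other description stem, above it. The log2 fold change was 1.76 ± 1.01 (edgeR unadjusted p = 0.114, adjusted p = 0.99995), the smallest unadjusted p among the 9. With the description stem as a covariate it was 0.91 ± 1.42, and in limma-voom, which was run with quality weights for libraries, 2.86 ± 1.01 (limma unadjusted p = 0.0173, where 4.19% of all tested genes were under 0.05 and Clec2d was the only member). The 1 count in WT 2 lay under the 3 counts that a reading of 0 still allows. Within the stem that holds both genotypes, KO 1 with 3.69 CPM stood between the WT libraries, and the other stem held KO libraries alone. Cd69 had 52.1, 37.1 and 32.1 CPM in KO and 48.4, 31.6, 31.8 and 54.0 CPM in WT, with a log2 fold change of -0.03 ± 0.33. It varied 1.70-fold over the 7 libraries, and KO 3, WT 2 and WT 3 were close together at its low end.

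Mean log2 CPM was 3 or more for 8 members, all but Clec2d, and 7 of the 8 differed 4-fold or more between the highest and lowest library, against 25.5% of the 8987 genes at that level. The same 7 had KO 3 and WT 2 as their lowest libraries, against 18.2% of those genes. When the mature neutrophil score of each library was subtracted, the SD of log2 values over the 7 libraries became 0.25 for Clec4d, 0.19 for Clec4e and 0.26 for Clec4n. It became 0.44 for Clec4a2, 0.35 for Clec5a and 0.48 for Clec7a, so 6 of the 8 lay under 0.5, against 3.29% of the genes at that level. Clec12a moved less, from an SD of 1.00 in log2 CPM to 0.82 after subtraction. For Cd69 the SD was larger after subtraction, 1.25 against 0.35 in log2 CPM, and for Clec2d it was 1.68 against 1.44. Subtracting the score adds its spread to a transcript that varies little, so this SD cannot decide whether Cd69 followed the score. Together the 9 genes took 0.283%, 0.200% and 0.0315% of counts in KO 1, 2 and 3 and 0.335%, 0.0474%, 0.155% and 0.139% in WT 1, 2, 3 and 4, with Wilson 95% intervals of 0.0300 to 0.0330% for KO 3 and 0.329 to 0.341% for WT 1.

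**Figure D2:**
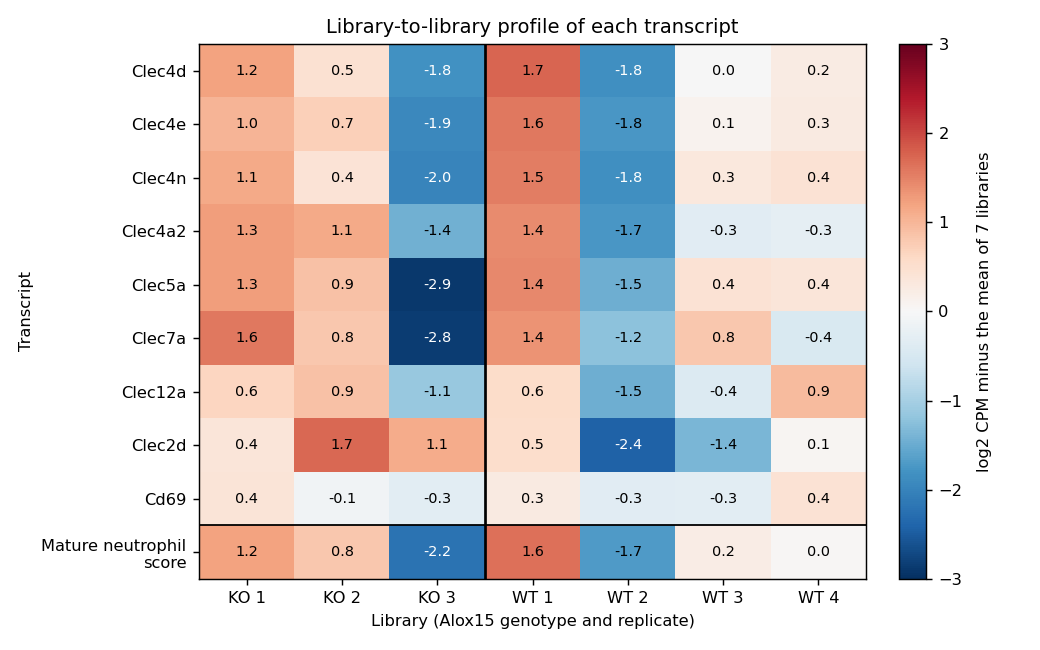
Log2 CPM of each receptor transcript and the mature neutrophil score in each library, minus the mean over the 7 libraries; red is above and blue below that mean, and the vertical line divides the 3 KO libraries from the 4 WT libraries. The rows of Clec4d, Clec4e, Clec4n, Clec4a2, Clec5a and Clec7a follow the score, with KO 3 and WT 2 lowest. Clec2d does not, and Cd69 varies little.

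With the score as a covariate in edgeR, no member passed (adjusted p = 0.99995 for each), and the standard errors of the first 6 members were 0.23 to 0.33. The log2 fold change was 0.02 ± 0.24 for Clec4d, -0.03 ± 0.23 for Clec4e, -0.16 ± 0.24 for Clec4n, -0.31 ± 0.28 for Clec5a and -0.19 ± 0.33 for Clec7a. For Clec4a2 it was 0.65 ± 0.28, with an unadjusted p of 0.0378 in edgeR, the only member with an unadjusted p under 0.05 in that fit, where 3.14% of all tested genes were under it.

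**Figure D3:**
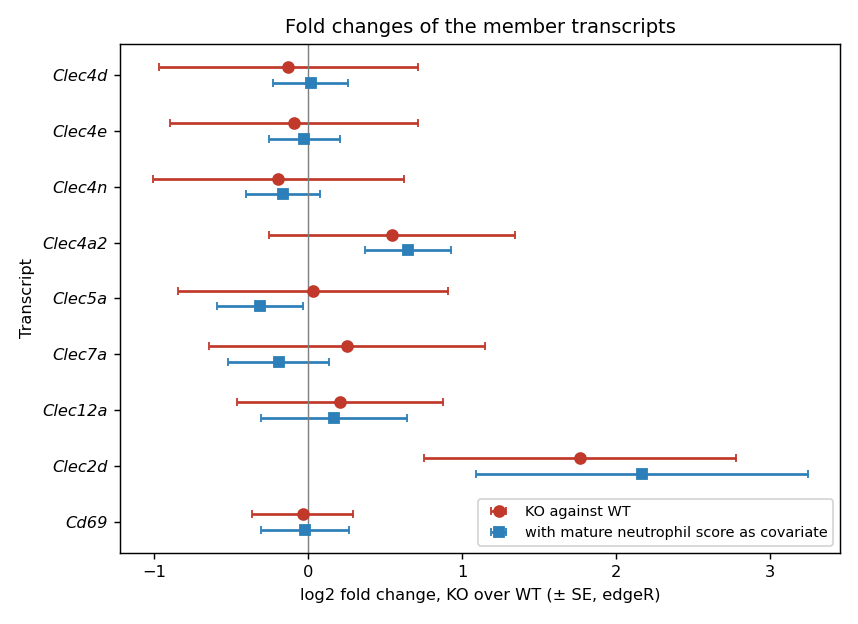
Log2 fold change, KO over WT, of each receptor transcript with its SE, from edgeR without covariates (circles) and with the mature neutrophil score as a covariate (squares). With the covariate the intervals of 1 SE narrow for the first 6 receptors, and less for Clec12a (0.67 to 0.48) and Cd69 (0.33 to 0.29). For Clec2d the interval widens (1.01 to 1.08). Clec4a2 lies at 0.54 without and 0.65 with the covariate.

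Clec4a2 took a larger share relative to the activating receptors next to it in KO than in WT in every library. Per 1000 Clec4e counts there were 68.4, 78.0 and 77.3 Clec4a2 counts in KO 1, 2 and 3, against 51.7, 55.2, 41.9 and 38.8 in WT 1, 2, 3 and 4. The means were 74.6 ± 5.34 in KO (SD, n = 3) and 46.9 ± 7.80 in WT (SD, n = 4), and the ranges did not overlap. KO 1, of the same description stem as the WT libraries, was the lowest KO library and still lay above all 4 WT libraries. For the other neighbours the ranges nearly touched. There were 8.05 Clec4d counts per Clec4a2 count in KO 1 and 8.17 in WT 2. For Clec4n there were 7.89 in KO 1 and 8.34 in WT 2, where Clec4a2 had only 47 counts. In KO 3 Clec4a2 also had 47 counts. The ratio to Clec4e was singled out after the values were seen. Of 36 pairs of members, 4 had ranges without overlap. Each of the 4 set Clec4a2 against another receptor (Clec4d, Clec4e, Clec4n or Clec5a). These 4 are not separate results, since all hold Clec4a2, and Clec4d, Clec4e and Clec4n kept nearly fixed proportions. How often pairs of other genes lack overlap was not counted. No pair passed adjustment over the 36: the log2 ratio of Clec4a2 to Clec4e differed by 0.67 between KO and WT (exact two-sided permutation p = 0.0571, adjusted p = 0.343, where the smallest p that 35 choices allow is 0.0286). Among 8986 other genes at a mean log2 CPM of 3 or more, 0.445% had a ratio to Clec4e without overlap, and 0.278% had one that was higher in KO. Clec4e itself varied 11.3-fold between libraries, and a gene that does not follow it carries this swing in its ratio. Only 3.29% of genes at that level lay under an SD of 0.5 after the neutrophil score was subtracted. The shares are thus no measure of chance for genes that follow Clec4e.

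The other genes of the Clec4a family on chromosome 6 were set beside it. Clec4a3 had 68.2, 63.8 and 59.2 counts per 1000 Clec4e counts in KO, against 25.6, 35.2, 44.0 and 36.3 in WT, again without overlap. Its own counts were low in WT 2 (30 counts) and KO 3 (36 counts). Clec4a1 had 132, 123 and 155 in KO and 54.2, 155, 70.7 and 77.0 in WT, where WT 2 lay among the KO libraries. In CPM both overlapped between genotypes, and their log2 fold changes were 0.95 ± 0.76 for Clec4a3 and 0.85 ± 0.61 for Clec4a1, neither past the test (edgeR adjusted p = 0.99995). Leaving out 1 library at a time gave the lowest values without KO 1, 0.42 for Clec4a3 and 0.36 for Clec4a1, and the highest without KO 3, 1.404 for Clec4a3 and 1.27 for Clec4a1. The Clec4a genes are close copies, and the sources used here do not give how reads shared between copies were counted, which makes values within the family uncertain. Markers of monocytes and macrophages leaned the same way: 16 of 16 tested markers had a log2 fold change above 0, against 51.4% of all tested genes, and 0 of 16 passed. Markers of 1 cell type are not independent of each other. Their summed level was 1913.5, 1078 and 339 CPM in KO 1, 2 and 3 and 274 to 836 CPM in WT, with no marker at 0 in all libraries. Relative to Clec4e, the macrophage complement gene C1qb had 177, 90.5 and 266 counts per 1000 in KO and 11.8, 116, 96.2 and 95.4 in WT, with overlap. The part of such cells in the Clec4a2 values was not tested.

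**Figure D4:**
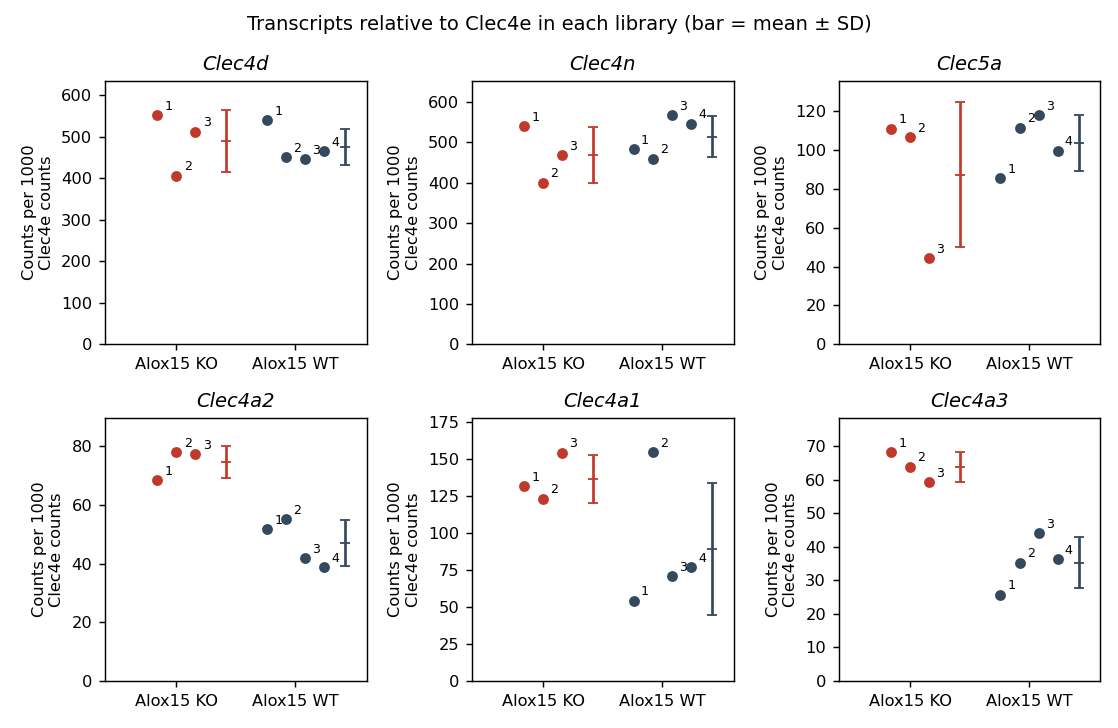
Counts of 6 C-type lectin receptor transcripts per 1000 Clec4e counts in the 3 KO and 4 WT libraries, with points numbered by replicate and bars for mean ± SD. Clec4d and Clec4n lie at like values in both genotypes, Clec5a is low in KO 3, and Clec4a2 and Clec4a3 are higher in every KO library than in any WT library.

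The genes whose library profiles were nearest to 7 of the receptors (Clec4n and Clec4a2 were not included) were sought by the root mean square difference of centred log2 CPM over the 7 libraries among 8324 named genes. For Clec4e they were Kdm5b, a histone demethylase gene (0.12), Il1b, which encodes the cytokine IL-1β (0.12), and Ddx60, an RNA helicase gene (0.12). Il1b had 7013, 4872 and 768 CPM in KO and 11012, 1060, 3628 and 3927 CPM in WT, so it was highest in WT 1 and lowest in KO 3, as Clec4e was. For Clec4d they were Ipcef1 (0.10), Csf2rb, the shared receptor chain for GM-CSF, IL-3 and IL-5 (0.12), and Ddx60 (0.14). Clec5a had Slfn4 (0.11), the sialic acid receptor gene Cd33 (0.15) and the adaptor gene Pik3ap1 (0.15), and Clec7a had Sorl1 (0.17), Lpcat2 (0.21) and the ectoenzyme gene Bst1 (0.23). The nearest genes to Clec12a were Parp10 (0.27), the phagosomal metal transporter gene Slc11a1 (0.29) and Slc37a2 (0.30). Cd69 varied little and lay near genes of other kinds that also varied little, namely Tbce (0.11), Atp6v0b, a proton pump subunit gene (0.12), and Abraxas2 (0.13). Clec2d had no close match, with Naglu (0.58), Zfp628 (0.61) and Fam129b (0.70) the nearest. Candidates had a mean log2 CPM of at least 3, which Clec2d with its 1 to 33 counts per library did not reach. Its distances thus include counting noise.

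The adaptor genes for these receptors were detected in every library. Fcer1g had 577, 372 and 146 CPM in KO and 922, 96.3, 325 and 495 CPM in WT. Tyrobp had 709, 470 and 135 CPM in KO and 932, 93.0, 427 and 764 CPM in WT. Both were lowest in WT 2 and KO 3, and their genotype ranges overlapped. Per 1000 Clec4e counts the kinase gene Syk stood at 361 ± 32.2 in KO (SD, n = 3) and 368 ± 64.7 in WT (SD, n = 4). Of 19 tested members of the adaptor and kinase list, 0 passed the test over all genes, 5 had a log2 fold change above 0 and 14 below 0 (median -0.16). Those with the smallest unadjusted p were Nr4a1, a nuclear receptor gene induced by activation (-0.87 ± 0.76), the exchange factor gene Vav3 (-0.32 ± 0.28), Ptpn11 (-0.23 ± 0.26) and the kinase gene Btk (-0.68 ± 0.92). The phosphatase gene Ptpn6 had 759, 767 and 342 CPM in KO and 933, 401, 748 and 589 CPM in WT.

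Card9, which links Syk to NF-κB below these receptors, had low counts, with 17, 2 and 0 counts in KO and 1, 1, 19 and 9 counts in WT. Its partners were detected throughout: Bcl10 had 69.3 to 123 CPM in KO and 62.5 to 191 CPM in WT, and Malt1 had 5.84 to 24.1 CPM in KO and 9.24 to 20.7 CPM in WT. In the list of the CARD9 complex and its NF-κB outputs, 0 of 22 tested genes passed, with 11 above and 11 below 0 (median 0.004). The smallest unadjusted p belonged to Nfatc2 (0.63 ± 0.53), Ikbkb (0.34 ± 0.33), Map3k14 (0.40 ± 0.51) and Nfkb1 (0.28 ± 0.37).

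Of 41 other C-type lectin and lectin-like receptor genes, 12 passed the filter and 0 of them passed the test, with 9 above and 3 below 0 (median 0.35), while 12 had 0 counts in all 7 libraries. Ly75, the endocytic receptor DEC-205, had groups that did not overlap, with 24.7, 23.6 and 10.9 CPM in KO and 7.77, 4.70, 6.75 and 6.62 CPM in WT (log2 fold change 1.61 ± 0.45, edgeR unadjusted p = 0.00562, adjusted p = 0.99995). Clec2i, a relative of Clec2d, did not follow the neutrophil score, with 112, 75.7 and 90.6 CPM in KO and 36.5, 108, 69.9 and 76.2 CPM in WT (0.35 ± 0.36). The other genes above a mean of 8 CPM were Clec1a (0.34 ± 0.93), the mannose receptor gene Mrc1 (0.61 ± 0.71), Cd93 (0.55 ± 0.57) and the oxidised LDL receptor gene Olr1 (-1.04 ± 1.14). Mrc1 had 65.3 CPM in KO 1 and 18.1 and 8.18 CPM in KO 2 and KO 3, against 10.02 to 33.2 CPM in WT.

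Genes of ligands and binding partners gave no call: 0 of 9 tested passed, 4 above and 5 below 0 (median -0.002). The myosin light chain genes Myl12a and Myl12b, whose products bind CD69, had log2 fold changes of -0.58 ± 0.32 and -0.66 ± 0.34. With the description stem as a covariate these were -0.09 for Myl12a and -0.02 for Myl12b, and without KO 1 they were -0.90 for Myl12a and -1.14 for Myl12b. Sap130 had 0.38 ± 0.46 and S100a8 had -0.35 ± 0.83. The list holds Sap130 by a shared name only, since that gene encodes a Sin3A-associated protein and the spliceosomal protein that Mincle binds is encoded by Sf3b3, which had 0.06 ± 0.35. S1pr1 had 5.05, 1.53 and 7.01 CPM in KO and 5.38, 5.01, 13.9 and 0 CPM in WT, where the 0 allows up to 0.768 CPM. Klrb1b, the receptor for Clr-b, had 17, 1 and 9 counts in KO and 0, 2, 14 and 0 in WT, and did not pass the filter.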

How the data were processed

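The authors deposited 1 table of whole-number counts per Ensembl gene for 7 libraries. Per the labels, polyA RNA was column-purified, treated with DNase and made into QuantSeq libraries. The tools RSEM 1.2.3 and DESeq2 and the build mm10 are named, without roles, in the submitters' processing notes. RSEM gives expected counts, so the deposited counts may be rounded estimates. The sources used here give no strand setting, annotation release or treatment of shared reads. Labels name no molecular identifiers, so intervals and limits cover counting error only.

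Of 51789 genes, 51596 matched a symbol in GENCODE M21 (GRCm38, the build of mm10). KO and WT, grouped by title, were compared with edgeR 4.0.16 in R 4.3.3: filterByExpr (12506 genes, 99.6% of counts), TMM scaling and the quasi-likelihood test with robust dispersion. P-values were adjusted by Benjamini-Hochberg over all tested genes, and genes under an adjusted p of 0.05 were called. SEs come from the F test. CPM values use TMM library sizes, and log2 CPM a prior count of 2.

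Beside the 9 members, the text names up to 4 genes per pathway list by smallest unadjusted p, other C-type lectin genes with a mean of at least 8 CPM, the 3 genes nearest in profile to 7 members, and a few partners chosen for their role after values were seen. Members and lists were chosen with earlier results of these data known.

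Alternatives were DESeq2 1.42.0, limma-voom (limma 3.58.1), RLE and upper-quartile factors, other filters, leaving out libraries, and the replicate number, description stem or neutrophil score as terms.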

Additional observations from a re-analysis of the deposited data

Results flagged for a closer look

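Olr1, the oxidised LDL receptor gene, had 41.5 CPM in WT 1, far from the other WT libraries at 2.82, 9.14 and 3.44 CPM (gap over range 0.837, above the Dixon critical value for 4 samples). The 3 KO libraries had 9.14, 11.03 and 0.584 CPM. It was the only 1 of 29 genes examined in this way, where chance flags about 1 in 20.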

How the results depend on the processing

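No member was called under any of 17 alternatives, and the number of genes called was 0 in each of them but DESeq2, which called 1 gene, the pseudogene Impdh2-ps (0, 0 and 7 counts in KO, 30, 67, 124 and 66 counts in WT), named after its values were seen. At an unadjusted p under 0.05, edgeR counted 154 genes, DESeq2 213, limma-voom 524 (4.19%) and edgeR with the neutrophil score 393 (3.14%). Clec2d was under that threshold in limma-voom (limma unadjusted p = 0.0173), and Clec4a2 with the neutrophil score. The direction of most member fold changes was not stable, and the cause was not tested. The log2 fold change of Clec5a, 0.03 in the main test, was -0.016 in DESeq2, -0.014 with RLE factors, -0.0060 with no filter and -0.31 with the neutrophil score. With limma-voom and its quality weights it was 0.50 for Clec4d, 0.52 for Clec4e, 0.27 for Clec4n, 0.11 for Cd69, 0.089 for Olr1 and 0.13 for S100a8. With the description stem as a covariate it was 0.68 for Clec4d, 0.54 for Clec4e, 0.62 for Clec4n, 0.33 for Cd69 and 0.47 for S100a8. With the score it was 0.019 for Clec4d, -0.19 for Clec7a and -0.17 for Clec1a, and without both WT 2 and KO 3 it was 0.015 for Clec4e. Leaving out 1 library at a time gave 0 genes and 0 members called throughout, and ranges of -0.81 to 0.66 for Clec4d, -0.55 to 0.56 for Clec4e, -0.88 to 0.36 for Clec4n, -0.53 to 0.53 for Clec5a, -0.53 to 0.75 for Clec7a, -0.15 to 0.58 for Clec12a and -0.26 to 0.11 for Cd69. Among other genes the ranges were -0.65 to 0.84 for Clec1a, -1.54 to 0.37 for Olr1, -0.62 to 1.01 for Mrc1, -0.21 to 0.91 for Cd93 and -1.05 to 0.11 for S100a8. Clec4a2 ranged from 0.17 to 1.36 and Clec2d from 1.35 to 2.41. Clec2d gave no value under the filter of 5 CPM in 3 libraries. The log2 ratio of Clec4a2 to Clec4e, with alternatives chosen after seeing the data, was 0.58 to 0.77 without 1 library, 0.73 without WT 2 and KO 3, and 0.68 with a prior count of 0.5. It had been singled out for ranges without overlap, so leaving out libraries could not reverse its direction.

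With the replicate number as a replicate block, 0 genes and 0 members were called (80 genes at an unadjusted p under 0.05), and the log2 fold change was -0.31 for Clec5a, -0.25 for Clec7a and 0.12 for Cd69. Same-numbered KO and WT libraries had correlations of deviations of 0.35, -0.22 and -0.18, and differently numbered ones -0.48 to 0.47. The labels give a shared number only, and these correlations cannot decide whether the libraries were paired.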

Other observations

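Some further lectin genes had counts in every KO library and 0 in every WT library, and were picked out after their values were seen. Clec2g, a relative of Clec2d on chromosome 6, had 33, 4 and 8 counts in KO 1, 2 and 3, or 3.25 CPM over the group, against 0 of 18152398 counts in WT, where 3 counts over the group, taken as the floor, equal 0.165 CPM. The pooled KO level is 19.7 times this floor, with 33 of the 45 counts in 1 library. Cd209d, a gene of the DC-SIGN family, had 20, 1 and 8 counts in KO against 0 in WT. Its pooled KO level is 12.7 times the same floor. Both values allow for the counting error of the 0 in WT. They leave out the counting error of the KO counts and the spread between KO libraries. Neither passed the filter on low counts, so neither was tested. In the whole table of 51789 genes, 36 had 0 counts in every WT library and at least 1 in every KO library. Of these, 4 had 29 counts or more over KO, a threshold set at the total of Cd209d. The opposite pattern was shown by 19 genes.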
